A study of Homo sapiens with 2 samples.

Results

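Transcripts of the SMAD proteins and of the inhibitors of TGF-beta signalling were examined in A549, a cell line established from a human lung adenocarcinoma and epithelial in form, after 4 h of stretch culture or 4 h of static culture. The members were 10 listed symbols (SMAD2, SMAD3, SMAD4, SMAD6, SMAD7, SMURF1, SMURF2, TGIF1, TGIF2 and SKIL), and every probe set that the platform annotation names for them was taken. The annotation named 9 of the 10 genes, each through 1 probe set, out of 14884 named genes and 53617 probe sets. TGIF2 was unnamed there and its level was not analysed here. Each condition was represented by 1 array of biotin-labelled RNA, so no value below has a replicate and no difference could be tested. The labels give no strain amplitude, frequency or device, and the line is a single tumour line, which limits both groups as a model of lung epithelium. The stretched sample is spelt with 2 digits swapped in its title and as A549 in its source name.

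TGF-beta ligands act through paired receptor kinases that phosphorylate the receptor-activated SMADs, SMAD2 and SMAD3. These bind the common partner SMAD4, enter the nucleus and regulate transcription together with other factors. The pathway is restrained at several steps: SMAD6 and SMAD7 lack the phosphorylation motif and compete at the receptors, the SMURF proteins are ubiquitin ligases that mark receptors and SMADs for degradation, and TGIF and SKIL proteins repress transcription at SMAD-bound genes. Several of these inhibitors are themselves transcribed in response to the pathway and close a negative feedback loop.

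Of the 9 genes, 5 gave 2-fold or more extra signal on the stretched array, 0 were 2-fold or more below, and 4 lay between. SMURF1, SMAD3, SMAD6, SMAD7 and TGIF1 were the 5, with log2 differences (stretch minus static throughout) of 1.78, 1.48, 1.43, 1.35 and 1.09. Among all 10981 genes past a filter on dim signals (the higher of the 2 values at or above 2.52, the median of all values), 12.3% were higher by 2-fold or more and 2.5% were lower by as much. All 9 members passed that filter. They also passed a stricter one at the upper quartile of all values (4.24), where the same shares were 18.3% and 2.39%. SMAD3, SMAD6 and SMAD7 passed it only through the stretched array, with static values of 3.57, 4.17 and 2.99. A filter on the higher value also favours genes with a large difference, so passing it does not show that a gene is bright. The 12.3% thus depends on where the filter is set. Filtered genes below are the 10981. In such bulk RNA, fewer cells of a kind and less RNA per cell cannot be told apart. The median difference of the members was 1.09, with single genes from -0.32 to 1.78, and that of all filtered genes was 0.20. At 1.5-fold, 6 of the 9 were higher and 0 lower, against backgrounds of 27.7% and 8.9%. The arrays carried a general lean to higher values under stretch: of the filtered genes past 2-fold, 83.1% were higher on the stretched array, 61.5% after quantile normalization, 68.2% after a loess on level and 55.1% after centring on reference genes. Under those 3 scalings, 4 of the 9 members stayed at least 2-fold higher, with TGIF1 below 2-fold in each. Of all filtered genes, 6.48%, 7.26% and 6.69% were higher by 2-fold or more after quantile normalization, loess and centring on reference genes.

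The start regions of 4 members are printed to show 3 inhibitors that were higher under stretch (SMAD6, SMAD7 and SMURF1) beside 1, SKIL, that was not. Each is the stretch of 250 bases before an annotated start site, from RefSeq on GRCh38.p14, given 5′ to 3′ along the gene. For SMAD7, which has 3 annotated windows, the one lying farthest upstream is shown. Capitals mark the SMAD palindrome GTCTAGAC and the shorter SMAD box GTCTG, which reads CAGAC on the other strand. The arrays did not measure binding at these sites.
SMAD6, chr15:66701986-66702235, plus strand: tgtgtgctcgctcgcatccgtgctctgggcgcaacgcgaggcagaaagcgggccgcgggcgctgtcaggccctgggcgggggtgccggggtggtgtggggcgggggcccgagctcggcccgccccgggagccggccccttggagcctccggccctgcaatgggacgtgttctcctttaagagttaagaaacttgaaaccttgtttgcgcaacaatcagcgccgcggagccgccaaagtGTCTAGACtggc
SMAD7, chr18:48950966-48951215, minus strand: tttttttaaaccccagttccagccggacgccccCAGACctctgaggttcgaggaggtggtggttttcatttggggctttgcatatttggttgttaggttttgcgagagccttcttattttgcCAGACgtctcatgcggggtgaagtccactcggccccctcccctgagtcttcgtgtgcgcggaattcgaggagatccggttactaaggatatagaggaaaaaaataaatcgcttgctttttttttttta
SMURF1, chr7:99144109-99144358, minus strand: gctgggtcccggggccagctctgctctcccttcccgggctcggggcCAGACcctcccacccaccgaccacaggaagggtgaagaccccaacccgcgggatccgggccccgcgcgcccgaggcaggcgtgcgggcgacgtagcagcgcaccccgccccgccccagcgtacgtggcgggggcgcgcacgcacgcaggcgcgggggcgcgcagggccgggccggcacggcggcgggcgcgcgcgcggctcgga
SKIL, chr3:170357465-170357714, plus strand: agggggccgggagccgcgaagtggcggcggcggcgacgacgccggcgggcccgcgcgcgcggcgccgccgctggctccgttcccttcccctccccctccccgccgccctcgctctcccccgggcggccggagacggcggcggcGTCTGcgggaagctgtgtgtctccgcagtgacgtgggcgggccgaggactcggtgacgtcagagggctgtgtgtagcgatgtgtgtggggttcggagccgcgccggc

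Within the 24 windows of 250 bases, the palindrome was present in 1 of the 10 members, SMAD6, where it begins 12 bases before the start site. Sequence outside these windows was not searched. Among 35116 windows of the same length in the RefSeq table, 64 (0.182%) hold it. The shorter SMAD box does not overlap it in SMAD6. At least 1 window of SMAD3, SMAD7, SMURF1, TGIF1 and SKIL, 5 of the 10 members, holds a SMAD box, as do 38.0% of all windows. The AP-1 motif TGANTCA, which reads the same on both strands, was found for 2 members, SMAD3 and TGIF1, and in 6.57% of all windows. The TEAD motif GGAATG, or CATTCC on the other strand, was found for TGIF1 and TGIF2 and in 11.9% of all windows. SMAD3 has 5 windows and TGIF1 has 7, so that they had more sequence to match than SMAD6, SMURF1 or SKIL with 1 each. The counts of members take any window of a gene, whereas the percentages are of single windows. They are therefore not like for like. These matches describe letters only. SMAD boxes stood before genes that were higher (SMURF1, SMAD7) and before SKIL, which was not.

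The receptor-activated pair had unlike differences. SMAD2 had a signal of 8.37 on the stretched array and 8.17 on the static array, a log2 difference of 0.20, and the values are nearly alike. The sign of the SMAD2 difference depended on the scaling, which placed it between -0.08 and 0.30. SMAD3, the partner that binds DNA directly, had 5.05 on the stretched array and 3.57 on the static array, a difference of 1.48 or 2.79-fold. Its static signal lay within the range of genes of unrelated tissues, whose 95th percentile (4.06) was used as a background bound, and RMA compresses such low signals. The difference of SMAD3 exceeded that of SMAD2 by 1.28, and by 1.25 to 1.34 over 5 scalings of the arrays. Only loess and quantile normalization could change this gap, since centring shifts all genes alike. SMAD4, the common partner without which neither SMAD2 nor SMAD3 forms the usual transcriptional complex, had 7.41 under stretch and 7.66 in static culture, a difference of -0.25. SMAD4 was therefore slightly dimmer on the stretched array, under all 5 scalings, with differences from -0.56 to -0.15.

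Both inhibitory SMADs had more signal under stretch. SMAD6, which preferentially restrains BMP receptors, had 5.60 on the stretched array and 4.17 on the static array, a difference of 1.43 or 2.69-fold. Its static signal lay just above the background bound, and the annotation ties its only probe set to a non-coding RefSeq transcript of the gene, so the part of this signal that comes from protein-coding SMAD6 RNA is not known. SMAD7, which blocks TGF-beta receptors and recruits SMURF proteins to them, had 4.34 under stretch and 2.99 in static culture, a difference of 1.35 or 2.55-fold. The static value of SMAD7 lay within the background range. Its stretched value and the static value of SMAD6, though above the 95th percentile, were under the brightest unrelated-tissue signal of 4.45 (MBP, the myelin basic protein). Under the scalings tried, SMAD6 stayed between 1.06 and 1.53 and SMAD7 between 1.10 and 1.45, and which of these genes had the larger difference was not the same in all scalings.

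The SMURF ubiquitin ligases were both higher. SMURF1 had 7.66 on the stretched array and 5.88 on the static array, both well clear of the background bound, and its difference of 1.78 (3.43-fold) ranked 212th from the highest of the 10981 genes. It was the only member past 3-fold in the deposited values, where 3.25% of all filtered genes were higher. Over the scalings its difference ran from 1.42 to 1.88. SMURF1 lay under 3-fold (1.585 in log2) after quantile normalization (1.42), a loess on level (1.44) and centring on reference genes (1.525). SMURF2 had 8.33 under stretch and 7.34 in static culture, a difference of 0.99 (1.99-fold) that fell just short of 2-fold and so is not among the 5. TGIF1, at 1.09, is the member just inside that threshold. The difference of SMURF1 exceeded that of SMURF2 by 0.79, and by 0.69 to 0.79 over the scalings. Again, only loess and quantile normalization could change that gap. Both SMURF genes kept a positive difference under all scalings.

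The nuclear co-repressors had unlike differences, although SKIL lay inside 1.5-fold in the deposited values. TGIF1, a homeodomain protein that recruits histone deacetylases to SMAD complexes, had 6.07 on the stretched array and 4.98 on the static array, a difference of 1.09 or 2.13-fold. Its 2-fold call depended on the scaling, with values from 0.67 after quantile normalization to 1.19 after centring on the medians. SKIL, which encodes SnoN and is itself a transcriptional target of TGF-beta in many cells, had 6.85 under stretch and 7.17 in static culture, a difference of -0.32. SKIL was dimmer on the stretched array under all 5 scalings, with values from -0.68 to -0.22. TGIF1 exceeded SKIL in difference by 1.41.

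**Figure D1:**
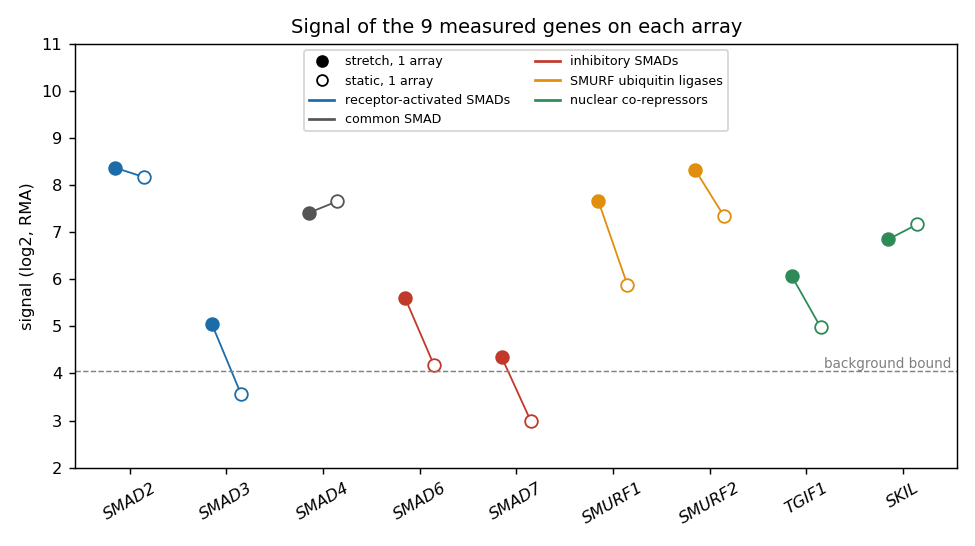
Signal (log2, RMA) of the 9 measured genes, with the stretched array as a filled point left of the static array as an open point, coloured by role. The dashed line is the background bound at 4.06. SMURF1 goes with the widest gap (7.66 on the stretched array and 5.88 on the static array), while SMAD4 and SKIL have the static point on top.

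The median difference ran from -0.23 in the dimmest of 10 level bins to 0.48 in bin 7, so each difference was also set beside genes of its own bin. In the bin of SMURF1, 3.0% of genes had a difference as high or higher. That share was 4.17% for SMAD7, 5.58% for SMAD3, 6.82% for SMAD6 and 9.42% for SMURF2. For TGIF1 it was 17.7%, in the bin with the most genes higher by 2-fold or more (21.8%). SMAD2 lay near the middle of its bin, with 56.0% at or above it. At the other end, 9.19% of genes in the bin of SKIL and 15.6% of those in the bin of SMAD4 had a difference as low or lower. The static values of SMAD7 and SMAD3 lay within the background range, where signals are compressed, so their shares are not firm and give no order against those of brighter genes. All these shares describe 1 pair of arrays and not how repeatable a difference would be.

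**Figure D2:**
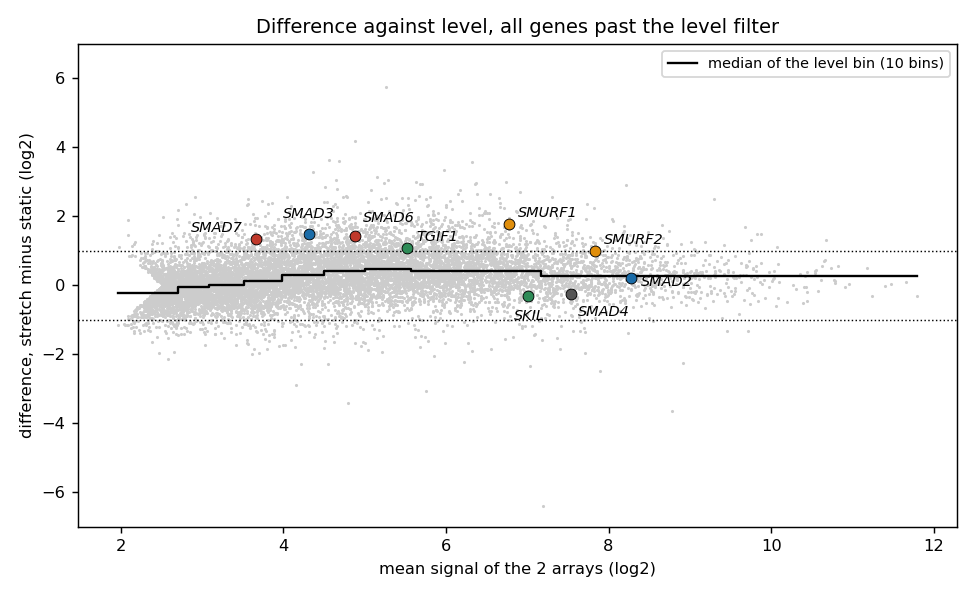
Difference (stretch minus static, log2) against the mean signal of both arrays (log2) for the 10981 genes past the level filter (grey), with the 9 members coloured by role. The step line is the median of each of 10 level bins and the dotted lines are 2-fold. SMURF1, SMAD3, SMAD6, SMAD7 and TGIF1 lie above the upper dotted line, and SMAD2, SMAD4 and SKIL below the step line.

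The genes whose pair of values was nearest to that of SMURF1, by straight-line distance over the 2 arrays, were THBS1 (7.73 on the stretched array and 5.91 on the static array), GLIPR1 (7.58 and 5.91 in the same order) and KNOP1 (7.60 and 5.96). THBS1 encodes thrombospondin 1, an extracellular protein able to activate latent TGF-beta. Nearest to SKIL were ASF1A, PDZD8 and JMJD1C, with differences of -0.30, -0.29 and -0.36. With 2 values per gene, such likeness is easily met and describes no more than these 2 signals.

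Among the other genes of the pathway, 101 symbols were listed by role, 59 were named on the array and 54 passed the level filter. Of these 54, 8 (14.8%) were higher by 2-fold or more and 2 were lower. The 14.8% was close to the 12.3% of all filtered genes, and their median difference of 0.24 was close to the 0.20 of all filtered genes. BMP4, FSTL3, SNAI2 and VEGFA, which are among the 8, lay under 2-fold both after quantile normalization and after a loess on level. The remaining SMADs gave almost equal deposited values on the 2 arrays. SMAD5, a mediator of BMP signals, had 6.22 on both arrays (-0.35 after a loess on level and -0.425 after quantile normalization), and SMAD1 had 2.93 under stretch and 2.94 in static culture, within the background range. SMAD9 did not pass the filter.

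Ligands were mixed. Of 7 past the filter, 2 were at least 2-fold higher and 1 lower. BMP6 had 7.51 on the stretched array and 5.94 on the static array (1.57), and BMP4 had 6.59 and 5.30 in that order (1.29), both bone morphogenetic proteins that signal through SMAD1, SMAD5 and SMAD9. GDF15, a distant relative of TGF-beta induced by cell stress, was the lower one, with 7.12 under stretch and 8.19 in static culture (-1.07, and -0.97 after centring on the medians). BMP7 (-0.73) was within the background range. TGFB1, TGFB2 and TGFB3 were not analysed here, nor were TGFBR1 and TGFBR2, the receptors for TGF-beta itself. Of 14 receptor symbols listed, 2 were analysed, ENG (-0.40) and ACVRL1 (-0.22), endothelial co-receptor and receptor genes with both values inside the background range.

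Outside the cell, 1 of 10 regulators was at least 2-fold higher and 0 lower. This was FSTL3, a secreted antagonist of activins, with 7.05 on the stretched array and 5.89 on the static array (1.16). LTBP4 (0.86) and LTBP1 (0.43, but -0.01 after quantile normalization), which anchor latent TGF-beta in the matrix, and LRRC32 (-0.67, both values inside the background range) lay inside 2-fold. Of 10 other inhibitors of the pathway, 1 was at least 2-fold higher and 0 lower. ATF3, a stress-induced repressor that joins SMAD3 at some genes, had 5.55 under stretch and 3.94 in static culture (1.61), the static value within the background range. BAMBI, a decoy receptor and known target of the pathway, had 6.38 under stretch and 7.35 in static culture, a difference of -0.97 opposite in sign to those of SMAD6 and SMAD7. After a loess on level and after quantile normalization BAMBI stood at -1.31 and -1.33. ZEB2 (0.69) and SKI (0.61), the relative of SKIL, lay between.

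None of 11 positive regulators and co-activators passed 2-fold in either direction. AXIN1 (0.77), USP4 (0.66), a deubiquitinase of the TGF-beta receptor, RNF111 (0.42), a ligase that degrades SMAD7 and SKIL proteins, and KAT2B (0.35) had the largest differences among them. The sign of KAT2B turned negative after quantile normalization (-0.09) and after a loess on level (-0.01). Of 13 genes known as targets of TGF-beta in various cells, 4 were at least 2-fold higher and 1 lower. CCN2, a matricellular growth factor also driven by YAP, had 8.11 under stretch and 4.52 in static culture (3.59), with 2.28 as the mean of both its probe sets. ANGPTL4 (1.93) and SNAI2 (1.06) were higher too, along with VEGFA, at 1.0. TIMP3 was the lower one at -1.40, with both values inside the background range, and the mean of its probe sets gave -0.77. ID1, ID2, ID3 and CDKN1A, common readouts of the pathway, were not analysed here.

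**Figure D3:**
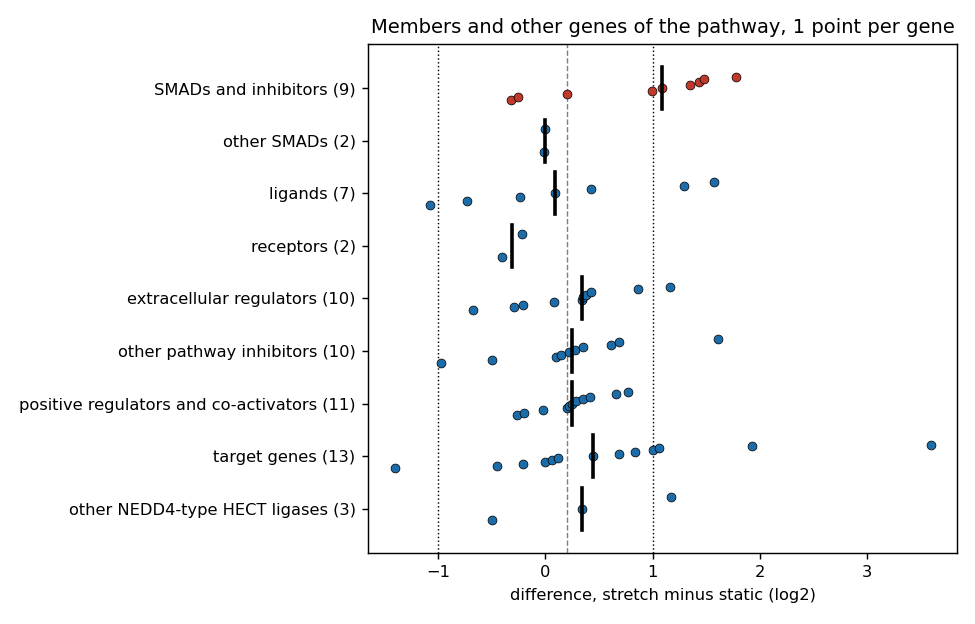
Difference (stretch minus static, log2) of each gene past the level filter, 1 point per gene, for the 9 members (top, red) and for lists of other genes of the pathway (blue). The number of genes stands in parentheses, black bars are medians, dotted lines are 2-fold and the dashed line is the median of all 10981 genes, 0.20. The members' median is 1.09, and the medians of the lists below lie between -0.31 and 0.44.

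SMURF1 and SMURF2 belong to the NEDD4-type HECT ubiquitin ligases, which share WW domains. Of 3 relatives measured, WWP2 had 6.05 on the stretched array and 4.88 on the static array (1.17, and 0.75 after quantile normalization). ITCH had 8.48 under stretch and 8.14 in static culture (0.34). WWP1, which can also be recruited by SMAD7, had 7.04 under stretch and 7.54 in static culture (-0.50). Within this family SMURF1, WWP2 and SMURF2 had the highest differences of those measured, and WWP1 alone was below 0 in the deposited values.

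**Figure D4:**
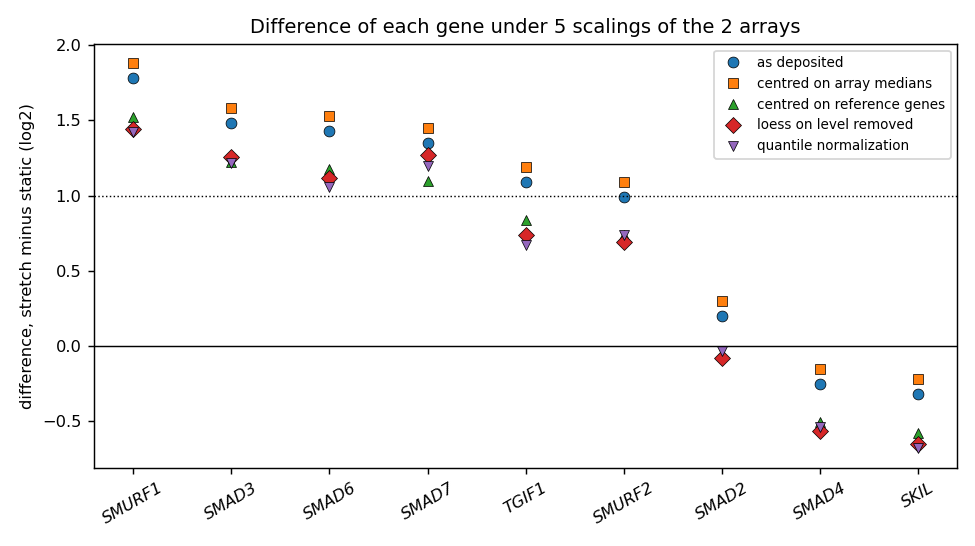
Difference (stretch minus static, log2) of each of the 9 members under 5 scalings of the 2 arrays, each a symbol. The dotted line is 2-fold. SMURF1, SMAD3, SMAD6 and SMAD7 stay above it under every scaling shown, TGIF1 and SMURF2 lie on both sides, and SMAD2 lies on both sides of 0.

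The cells' identity was checked with fixed markers, though of 13 epithelial and A549 markers listed only 8 were measured. AKR1B10, AKR1C1, AKR1C2, NQO1 and CDH1 of that list were not analysed here, so the markers seen do not identify A549 itself. KRT18, KRT7, KRT8 and EPCAM, 4 of 8 measured epithelial and A549 markers, were above the background bound on both arrays, while the keratin KRT19 and SFTPB, SFTPC and NKX2-1 of alveolar cells were within it. KRT7 (2.15), KRT8 (0.87) and KRT18 (0.71) were higher under stretch and EPCAM lower (-0.59). The 2 fibroblast markers measured (DCN and LUM) and the 4 endothelial ones were within it in both conditions, while COL1A1, CDH5 and PTPRC were not analysed here. Of 4 leukocyte markers, LYZ and TYROBP were within it, and CD14 (5.53 under stretch and 5.13 in static culture) and the lysosomal CD68 (8.58 under stretch and 7.51 in static culture) were above it. The 4 averaged 4.93 under stretch and 4.77 in static culture. The difference of CD68, 1.07, had the sign of most members. The labels name A549 alone for both samples, and whether any other cells were present was not tested. Genes of unrelated tissues gave a guide to array noise only at low signal: the robust SD of their differences was 0.31 over 21 genes, and 0 of them passed 2-fold.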

How the data were processed

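Per the submitters' processing notes, the deposited log2 values are RMA values (robust multi-array average). Neither the software nor the chip definition is given in those notes. Columns deposited by the authors do not share 1 distribution (sorted values differ by up to 0.45), so how the arrays were scaled to each other is unknown. RMA carries no detection calls, and the number of arrays limits the precision. Probe sets were named through the platform annotation (16098 with 1 symbol, 0 with several, 37519 unnamed), with symbols checked by gene identifier against RefSeq, GRCh38.p14. A gene is represented by its brightest probe set. No build of the array design is named, so no probe set is placed on the genome; the start windows and the order of genes on chromosomes come from RefSeq. The background bound is the 95th percentile of 21 measured genes of unrelated tissues (45 listed), and reference centring used 18 genes (34 listed).

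No test exists with 1 array per condition. The scalings (loess span 0.3) were run on simulated differences with some raised probe sets and no general lean to higher values. Centring on reference genes was run there without a shift and so was not tested. The choice of probe set per gene and the counts of members were not part of that simulation. Members and lists were chosen with earlier results of these data known. Named genes are all members, up to 4 genes per list with the largest absolute difference, and the 3 nearest genes of the highest and lowest member. VEGFA, CDKN1A, the TGFB, TGFBR and ID genes, C5orf22, the markers and the chromosomal neighbours were named outside this rule. Python 3.11.15, numpy 2.4.6, pandas 2.3.3, statsmodels 0.14.6 and matplotlib 3.10.9 were used.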

Additional observations from a re-analysis of the deposited data

How the results depend on the processing

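The count of 5 members at least 2-fold higher became 4 after quantile normalization, loess and centring on reference genes, 6 after centring on medians, 6 at 1.5-fold and 1 at 3-fold, and the count of 0 lower held under every alternative run. The members' median of 1.09 became 0.74 after loess and 0.735 after quantile normalization. Over all filtered genes the median of 0.20 became 0.31 after centring on medians, 0.00 after quantile normalization, 0.05 after loess and -0.08 after centring on reference genes. Of the 54 other pathway genes, 8 were higher as reported, 4 after quantile normalization, 4 after loess, 5 after centring on reference genes, 15 at 1.5-fold and 3 at 3-fold. Lower were 2 as reported, 3 after quantile normalization, loess or centring on reference genes, 1 after centring on medians, 1 under either stricter level filter, 1 with probe sets averaged, 5 at 1.5-fold and 0 at 3-fold. The stricter filters removed genes. Among the lower genes, TIMP3 came inside 2-fold with probe sets averaged (-0.77) and GDF15 after centring on medians (-0.97). BAMBI passed 2-fold after quantile normalization (-1.33), loess (-1.31) and centring on reference genes (-1.225). Why single values shifted was not tested. A value was held to have moved when it shifted by more than 0.31, the robust SD of unrelated-tissue genes, which stands in for a replicate spread that these arrays cannot give. Of 340 values for single genes and lists under the alternatives, 270 moved less than that (counts, by no more than 1.5 times) and 0 of the 2-fold differences turned their sign. Part of that 270 was fixed in advance and says little about robustness. Either centring shifts every gene by a single constant below 0.31, and averaging leaves genes with a single probe set unchanged. No replicate could be left out, and no paired analysis was possible because each condition has 1 array. Low static signals limit SMAD3 and SMAD7 most.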

Other observations

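SMAD6 and SMAD3 are next to each other on chromosome 15, with 0 protein-coding genes between them in the RefSeq table, and their differences were 1.43 and 1.48. The protein-coding genes on the outer sides of the pair were not alike: LCTL stood at -0.55, below the level filter, and AAGAB had 4.91 on the stretched array and 4.75 on the static array (0.16). Over the 9 members there were 16 adjacent protein-coding genes that are no members, of which 11 were measured and 9 passed the level filter. Of these 9, 2 were at least 2-fold higher and 0 lower, where 12.3% of all filtered genes were higher and 2.5% lower. They were KPNA7, an importin beside SMURF1, with 4.19 under stretch and 2.79 in static culture (1.40, the static value within the background range), and CTIF, a translation factor beside SMAD7, with 5.30 under stretch and 4.01 in static culture (1.29, the static value again within the background range). TRRAP, on the other side of SMURF1, stood at 0.75 and DYM, on the other side of SMAD7, at 0.30. These neighbours were looked up after the members' values had been seen.

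The palindrome found before SMAD6 occurs in start windows of 63 genes, 17 of which passed the level filter. Of the 17, 2 were at least 2-fold higher and 0 lower, SMAD6 itself and C5orf22 (7.42 on the stretched array and 6.22 on the static array, a difference of 1.20). This is 11.8% of them, close to the 12.3% of all filtered genes, and their median difference was 0.34.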
